A study of Mus musculus with 8 samples.

Results

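The mRNA levels of 8 genes that control cyclic AMP (cAMP) and its kinase in the oocyte were described in single mouse eggs with and without Hira. The genes were taken by symbol from the 37620 Ensembl identifiers of the deposited table, and all 8 were found. They are the receptor genes Gpr3 and Gpr12, the adenylyl cyclase genes Adcy3 and Adcy9, the phosphodiesterase gene Pde3a, and Prkaca, Prkar1a and Prkar2b, which encode subunits of protein kinase A (PKA). The measurements are RNA-seq of 8 single C57BL/6 oocytes in MII, the metaphase at which an ovulated egg waits for sperm. 4 oocytes had the genotype Hiraf/f, with both Hira alleles floxed and no Cre in the genotype label, and are called WT. The other 4 were Hiraf/f with Gdf9-Cre, a recombinase driven in oocytes, and are called KO. The sample titles of both genotypes carry a Gdf9-Cre+ tag, so the groups follow the description and genotype labels. The labels give no age and name no female. Hira encodes a chaperone that deposits a histone variant on chromatin outside DNA replication.

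In a growing or full-grown oocyte, cAMP holds meiosis at prophase. GPR3 and its relative GPR12 are constitutively active receptors that stimulate adenylyl cyclase through the G protein Gs, and PDE3A breaks cAMP down. PKA is a tetramer in which a dimer of regulatory subunits holds catalytic subunits inactive until cAMP binds. In mouse oocytes active PKA phosphorylates WEE1B, encoded by Wee2, and CDC25B. These phosphorylations, which activate WEE1B and inhibit CDC25B, together keep the cell-cycle kinase CDK1 inactive. An MII egg has already left the prophase arrest, so these values describe mRNA that the egg still carries.

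Levels are in FPKM, a read count divided by gene length and library size, which puts genes of different length on 1 scale. A comparison between genes rests on the gene lengths used, and one between oocytes rests on the library total. Lengths of several genes differed from GENCODE M21. Those of Pde3a, Pde3b, Prkaca, Prkar2a, Prkacb and Adcy8, among others, were shorter, and that of Prkar1a was longer. Whole reads and library totals were recovered from the FPKM steps, with totals of 38032455 to 50208686 reads. Listed genes held 84.9% ± 0.862 of the total in WT and 78.1% ± 2.63 in KO (SD, n = 4). Hira itself had 139 reads in WT and 4 in KO, and WT oocytes 1, 2, 4 and 5 held 42, 0, 96 and 1 of them. In GENCODE M21, 44.7% of the exonic bases of Hira also lie in exons of Gm28539 on the same strand, and the part of this in its low counts was not tested. Hira reads do not set the libraries labelled WT 2 and WT 5 apart from KO, and the results that lead are also given without both, a choice made after the data were seen. Of 12 oocyte marker genes, 11 reached 1 FPKM in all 8 oocytes, and the sum of all 12 was 15432 to 20548 FPKM in WT and 8946 to 11286 in KO. That sum is mostly Dppa3, at 11910 and 7077 FPKM in WT and KO, Oosp1, at 3019 and 1118, and Gdf9, at 1800.0 and 1136. Oosp1 was the 1 marker at least 2-fold lower in KO, while Ddx4 was 2.98-fold higher with no overlap and Figla 2.76-fold higher with overlap. Of all genes at 1 FPKM or more in at least 4 oocytes, 6.84% were 2-fold lower and 18.3% higher. KO lay wholly below WT for 4 of the 12 markers and wholly above for 1, beside 7.37% and 13.4% of those genes. The part of these shifts in the values below was not tested. Of 16 cumulus and granulosa cell markers, 8 had no read in any oocyte, among them Amh, Foxl2, Inha, Gja1 and Npr2. Cyp19a1, aromatase, was the exception at 7.70 to 29.9 FPKM, and the other 15 together summed to 0.209 to 0.824 FPKM in WT and 0.0107 to 0.456 in KO. Of 6 blood cell markers 4 had no read in any oocyte, and their sum was 0 in all WT oocytes and 0 to 1.81 FPKM in KO. With no female named, each genotype counts as 1 sample, no test between genotypes was made, and SDs describe spread between single oocytes.

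Genotypes were compared over the 7833 genes that reached 1 FPKM in 4 or more oocytes. This filter kept 6 of the 8 members and left out Gpr12 and Adcy3. Of these 6, Prkar2b passed 2-fold upward in KO by mean FPKM, beside 18.3% of all compared genes. Gpr3 passed 2-fold downward, beside 6.84%, and the other 4 differed by less. With 1 of 6 in each direction, the members are not set apart from that background. Prkar2b and Gpr3 were also the 2 members with no overlap between genotypes, beside 20.7% of all compared genes. Every KO oocyte lay above every WT oocyte for 13.4% and below for 7.37%. The members had a median log2 difference of 0.15, where the difference is KO minus WT in mean log2(FPKM + 1), beside 0.10 for all compared genes. That scale understates the change of low genes.

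Promoter sequences are shown for the 2 members past 2-fold, and for Prkar1a as the member whose window holds a full cAMP response element. RefSeq windows on GRCm38.p6, 250 bases before to 50 after a start site, were found for 7 of the 8 members, 16 windows in all, and none was listed for Pde3a. Capitals mark TGACG, the core of the cAMP response element, on either strand, where it reads CGTCA on the other strand. The Gpr3 window is chr4:133212487-133212786 (minus strand), that of Prkar2b is chr12:32061228-32061527 (minus strand), and that of Prkar1a is chr11:109650699-109650998 (plus strand).
Gpr3: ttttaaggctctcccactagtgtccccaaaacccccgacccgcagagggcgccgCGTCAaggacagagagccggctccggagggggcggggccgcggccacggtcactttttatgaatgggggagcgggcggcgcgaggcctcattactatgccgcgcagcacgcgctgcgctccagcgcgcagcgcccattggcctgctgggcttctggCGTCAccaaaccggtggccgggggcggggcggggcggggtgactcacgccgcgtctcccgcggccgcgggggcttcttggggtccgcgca
Prkar2b: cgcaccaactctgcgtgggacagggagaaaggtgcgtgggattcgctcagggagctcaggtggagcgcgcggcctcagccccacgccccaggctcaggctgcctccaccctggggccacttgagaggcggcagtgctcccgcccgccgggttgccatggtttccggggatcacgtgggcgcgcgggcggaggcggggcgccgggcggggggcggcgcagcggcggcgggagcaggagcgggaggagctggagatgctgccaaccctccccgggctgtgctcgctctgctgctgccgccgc
Prkar1a: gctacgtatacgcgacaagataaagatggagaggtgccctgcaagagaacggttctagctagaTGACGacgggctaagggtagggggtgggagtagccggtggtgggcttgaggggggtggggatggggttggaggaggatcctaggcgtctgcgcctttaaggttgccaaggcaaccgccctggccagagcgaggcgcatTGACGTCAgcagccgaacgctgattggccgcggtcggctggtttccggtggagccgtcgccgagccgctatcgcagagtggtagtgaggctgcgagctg
The full element TGACGTCA was in 2 of the 16 windows, both of Prkar1a, and these windows overlap and share the same copy. Among 32851 windows of all genes it was in 1.79%. The core, which the full element contains on both strands, was in 6 of the 16 windows and in 20.8% of all windows. Those 6 are from Gpr3, Adcy9, Prkaca and Prkar1a, and the 2 overlapping Prkar1a windows share the same cores. Prkar1a alone has 6 of the 16 windows. By gene, 4 of the 7 members with a window held the core, beside 6228 of 27025 genes. The Gpr3 window held 2 cores and both Prkar2b windows none. These matches are letters in a window and say nothing of binding.

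Gpr3 was the receptor gene carried by every egg, and it was lower in KO. Gpr3 (ENSMUSG00000049649) lies on chromosome 4, 133209340 to 133212536 on the minus strand of GRCm38, and 7.46% of its exonic bases also lie in exons of Cd164l2 on the other strand. The WT oocytes 1, 2, 4 and 5 had 5.41, 2.64, 3.61 and 2.89 FPKM of Gpr3, and the KO oocytes 1, 3, 5 and 6 had 1.46, 1.93, 2.13 and 1.37 FPKM. All KO oocytes lay below all WT oocytes, with a gap between 2.13 and 2.64 FPKM. Mean Gpr3 was 3.64 FPKM (SD 1.25, n = 4) in WT and 1.72 FPKM (SD 0.366, n = 4) in KO, a 2.11-fold lower level with a log2 difference of -0.74. In reads, Gpr3 summed to 1761 in WT (95% Poisson interval 1680 to 1845) and 813 in KO (758 to 871). Gpr3 lay close to the 2-fold threshold, and it was 1.77-fold lower without WT oocyte 1, 1.98-fold without KO oocyte 6 and 1.94-fold when scaled by the reads in listed genes. Without the libraries labelled WT 2 and WT 5 it was 2.62-fold lower. These intervals and the others below cover counting error only, since amplified reads are not independent molecules.

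Gpr12 reads were scattered over single eggs. Gpr12 (ENSMUSG00000041468; chromosome 5, 146582398 to 146585239, minus strand) encodes the receptor that has been implicated in meiotic arrest in the rat. It had 0, 0, 11 and 30 reads in the WT oocytes and 0, 25, 0 and 198 reads in the KO oocytes, in the order given for Gpr3. KO oocyte 6, at 1.69 FPKM, held 88.8% of the KO reads and was the only oocyte above 1 FPKM. A count of 0 allows up to 3 reads, which for Gpr12 is 0.0242 to 0.0320 FPKM depending on the library. The sums of 41 and 223 reads therefore rest on few cells, and the KO mean of 0.488 FPKM was 0.0866 without KO oocyte 6, beside 0.102 in WT. Gpr6, the closest relative of both, had no read in any oocyte. Gpr3 made up all of the summed receptor FPKM in WT oocytes 1 and 2 and in KO oocytes 1 and 5. It made up 97.6% and 90.0% in WT oocytes 4 and 5, and 88.1% and 44.8% in KO oocytes 3 and 6. Only in KO oocyte 6 did Gpr12 exceed Gpr3. That oocyte also had the largest number of genes at 1 FPKM or more, 8512, and the smallest part of its library in listed genes. The part of these in the Gpr12 value was not tested.

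**Figure D1:**
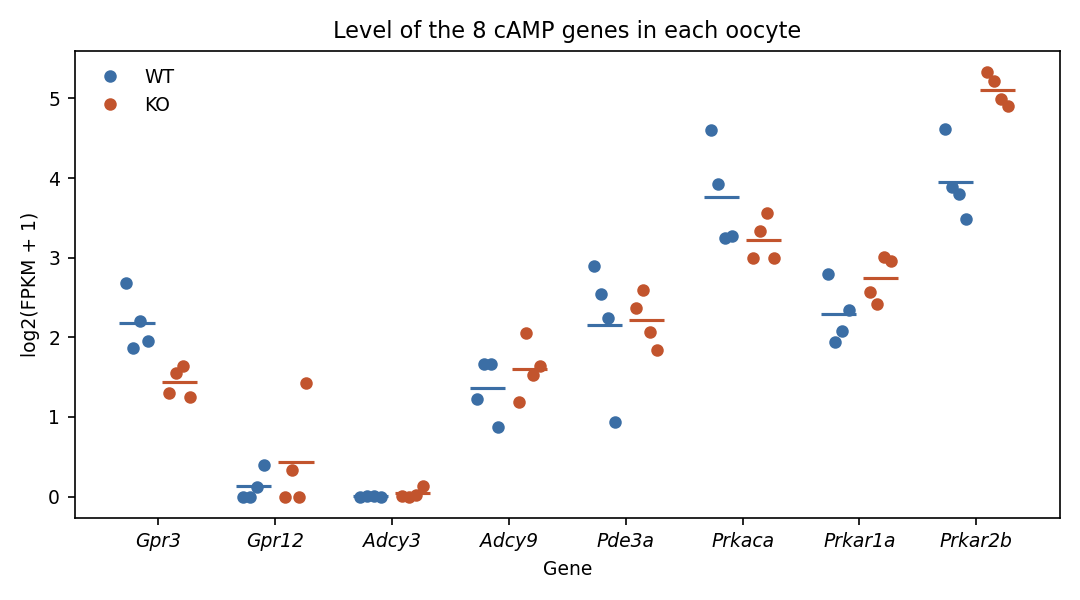
Points are single oocytes and lines genotype means of log2(FPKM + 1) for the 8 genes, with WT in blue and KO in orange. Prkar2b and Gpr3 have no overlap between genotypes, Adcy3 lies at the bottom of the scale in all 8 oocytes, and Gpr12 is raised in KO oocyte 6 at 1.69 FPKM.

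The cyclase mRNA of these eggs was mainly Adcy9 and Adcy8, with almost none of Adcy3. Adcy3 encodes the cyclase that earlier work in rodent oocytes linked to meiotic arrest. Adcy3 (ENSMUSG00000020654; chromosome 12, 4133103 to 4213525, plus strand) had 0, 1, 1 and 0 reads in the WT oocytes and 2, 0, 4 and 30 in the KO oocytes. Its highest value was 0.101 FPKM, in KO oocyte 6, which held 83.3% of the KO reads. The WT mean of 0.00168 FPKM lay below the 0.0110 FPKM that 3 reads per library give. The ratio of KO to WT reads per library total was 18.3, with a 95% counting interval of 4.71 to 157, and it describes 36 against 2 reads. It rests on KO oocyte 6, without which the KO mean was 0.00731 FPKM and also below what 3 reads per library give. GENCODE M21 places 22.1% of the exonic bases of Adcy3 within exons of Cenpo on the opposite strand, and the labels do not say how shared reads were counted.

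Adcy9 encodes a broadly expressed membrane cyclase and had the highest mean of the 10 cyclase genes over all oocytes, although Adcy8 exceeded it in WT oocyte 1 and in KO oocytes 1 and 5. Adcy9 (ENSMUSG00000005580; chromosome 16, 4287529 to 4420498, minus strand) had 1.34, 2.16, 2.18 and 0.835 FPKM in the WT oocytes and 1.28, 3.15, 1.88 and 2.10 in the KO oocytes. The genotypes overlapped, and the means were 1.63 ± 0.657 and 2.10 ± 0.778 FPKM, 1.29-fold higher in KO and within the spread between oocytes. Adcy9 made up 34.4% to 81.9% of the cyclase FPKM in WT and 41.1% to 66.8% in KO. Adcy8, a calcium-stimulated cyclase, averaged 0.915 ± 0.784 and 1.54 ± 0.665 FPKM with overlap. It was 1.68-fold higher in KO, 2.89-fold if WT oocyte 1 is left out and 1.34-fold if KO oocyte 5 is left out. Its share was 13.1% to 52.9% in WT and 23.2% to 54.1% in KO. Adcy5 had means of 0.333 and 0.282 FPKM, and Adcy2, Adcy4, Adcy6 and Adcy7 had no read in any oocyte. The summed FPKM of all cyclases was 2.92 ± 0.784 in WT and 4.04 ± 0.879 in KO.

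Pde3a did not separate the genotypes, while its relative Pde3b was lower in KO. PDE3A is the main cAMP phosphodiesterase of the mouse oocyte and is held inactive during arrest by cGMP that enters from somatic cells. Pde3a (ENSMUSG00000041741; chromosome 6, 141249269 to 141507448, plus strand) had 6.45, 4.83, 3.74 and 0.913 FPKM in the WT oocytes and 4.16, 5.05, 3.17 and 2.59 in the KO oocytes. The KO values lay inside the WT range, and WT oocyte 5 was the lowest of all 8. The means of 3.98 ± 2.33 and 3.74 ± 1.09 FPKM were 1.06-fold lower in KO, while the log2 difference of 0.06 had the opposite sign and itself turned in 5 of 14 alternatives. The deposited values were divided by a Pde3a length of 4205 bases, as the FPKM steps show, whereas its exons in GENCODE M21 span 12737 bases. The level of Pde3a beside other genes therefore depends on the gene model.

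Pde3b, which encodes the other cGMP-inhibited phosphodiesterase, had levels of 9.93, 9.08, 12.1 and 11.8 FPKM in the WT oocytes and 3.36, 6.10, 6.18 and 4.38 in the KO oocytes, with no overlap. The means, 10.7 ± 1.45 and 5.01 ± 1.38 FPKM, were 2.14-fold apart, or 1.93-fold if KO oocyte 1 is left out. Pde8a, a cAMP-specific enzyme, averaged 8.44 ± 2.30 and 7.21 ± 1.84 FPKM, and Pde6b, known as a subunit of the photoreceptor enzyme, 4.53 ± 2.22 and 5.41 ± 0.429 FPKM. These 4 were the only compared genes among 20 phosphodiesterase genes measured. Below the filter, Pde4d averaged 0.812 FPKM in WT and 0.391 in KO, 2.08-fold lower and also with no overlap. Pde3b made up 28.2% to 46.5% of the summed phosphodiesterase FPKM in WT and 14.0% to 21.5% in KO, with no overlap. The Pde3a share averaged 12.1% in WT and 14.3% in KO with overlap. Within the Pde3 pair, Pde3a took 39.4%, 34.7%, 23.6% and 7.19% in the WT oocytes and 55.3%, 45.3%, 33.9% and 37.1% in the KO oocytes. These shares overlapped, with means of 26.2% ± 14.3 and 42.9% ± 9.57.

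**Figure D2:**
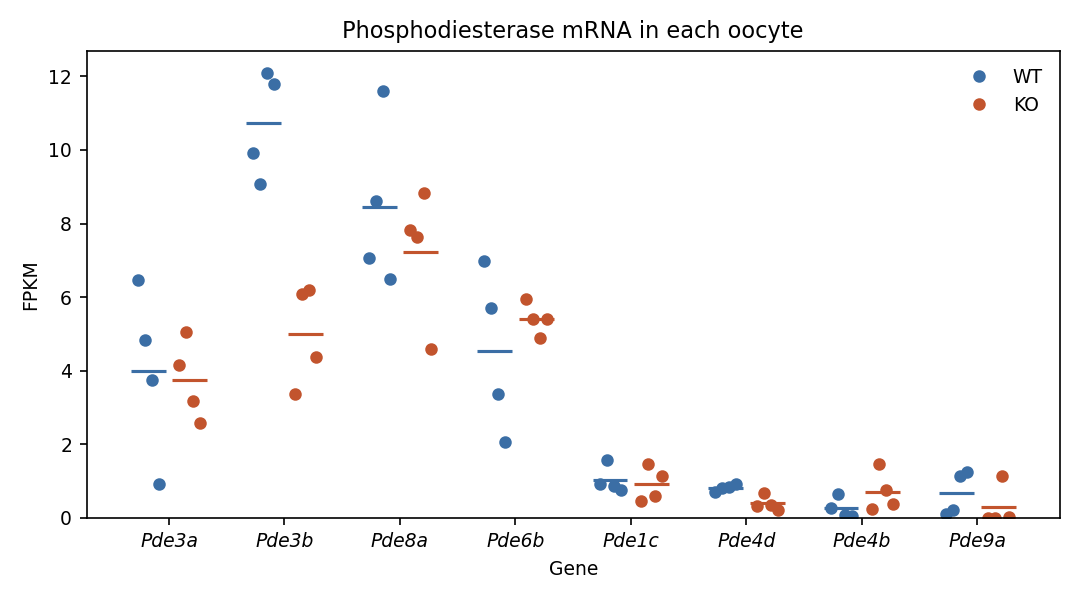
Points are FPKM of single oocytes and lines genotype means for the 8 phosphodiesterase genes with the highest mean level, WT in blue and KO in orange. Pde3b has no overlap between genotypes, at 9.08 to 12.1 FPKM in WT and 3.36 to 6.18 in KO, while Pde3a, Pde8a and Pde6b overlap. Pde4d, below the filter, also has no overlap, at 0.703 to 0.909 FPKM in WT and 0.209 to 0.688 in KO.

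The PKA subunit genes differed between genotypes in their balance, with more regulatory relative to catalytic mRNA in KO. Prkar2b, which encodes the regulatory subunit RII beta, was higher in every KO oocyte. Prkar2b (ENSMUSG00000002997; chromosome 12, 31958476 to 32061296, minus strand) had 23.5, 13.8, 13.0 and 10.2 FPKM in the WT oocytes and 39.3, 36.3, 30.8 and 28.9 in the KO oocytes. The lowest KO oocyte, at 28.9 FPKM, was above the highest WT oocyte, at 23.5. The means were 15.1 ± 5.80 and 33.8 ± 4.79 FPKM, 2.23-fold higher in KO with a log2 difference of 1.16. Reads summed to 9794 over WT (95% Poisson interval 9601 to 9990) and 21340 over KO (21055 to 21628). Leaving out WT oocyte 5 gave 2.02-fold and leaving out WT oocyte 1 gave 2.74-fold, and the fold was 2.43 scaled by reads in listed genes and 2.07 with median-of-ratios scaling. Without the libraries labelled WT 2 and WT 5, Prkar2b was 1.85-fold higher, under the 2-fold threshold.

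Prkaca, which encodes the main catalytic subunit C alpha, was not higher with it. Prkaca (ENSMUSG00000005469; chromosome 8, 83972993 to 83996443, plus strand) had 23.3, 14.2, 8.50 and 8.69 FPKM in the WT oocytes and 6.94, 9.09, 10.8 and 6.99 in the KO oocytes. The KO values lay in the lower part of the WT range or just under it, and WT oocytes 1 and 2 stood above all others. The means were 13.7 ± 6.93 and 8.46 ± 1.87 FPKM, 1.62-fold lower in KO and 1.24-fold lower without WT oocyte 1. WT oocyte 1 was the highest WT oocyte for 5 of the 6 compared members and for 30.4% of all compared genes. Prkacb, the other catalytic subunit gene, stayed below the filter with means of 0.761 and 0.895 FPKM.

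The remaining regulatory subunit genes overlapped between genotypes. Prkar1a, encoding RI alpha (ENSMUSG00000020612; chromosome 11, 109649405 to 109669656, plus strand), had 5.97, 2.86, 3.21 and 4.09 FPKM in the WT oocytes and 4.96, 4.33, 7.07 and 6.78 in the KO oocytes. Its means of 4.03 ± 1.39 and 5.79 ± 1.35 FPKM gave a 1.44-fold higher value in KO. Prkar2a, encoding RII alpha and not among the 8 genes, averaged 5.10 ± 2.96 and 2.74 ± 0.945 FPKM, 1.86-fold lower in KO. It passed 2-fold when WT oocyte 5, KO oocyte 1 or KO oocyte 3 was left out, with KO at 0.455, 0.497 and 0.476 times WT. Without WT oocyte 1, which held 44.2% of its WT reads, Prkar2a was only 1.35-fold lower. Prkar1b had no read in any oocyte.

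The ratio between subunits within a library does not depend on how libraries are scaled. The summed FPKM of regulatory subunits was 1.63, 1.43, 2.14 and 1.73 times that of catalytic subunits in the WT oocytes. In the KO oocytes it was 5.71, 4.38, 3.59 and 4.79 times. The means were 1.73 ± 0.300 and 4.62 ± 0.883, a 2.66-fold higher ratio in KO with no overlap. The difference of 2.88 between these means was 2.73 without the libraries labelled WT 2 and WT 5. The ratio of Prkar2b to Prkaca was 0.970 to 1.53 in WT and 2.85 to 5.66 in KO. Without Prkar2b, Prkar1a and Prkar2a together were 0.501 to 0.776 times the catalytic sum in WT and 0.790 to 1.08 times in KO, also without overlap. Prkar2b made up 60.7% to 65.0% of regulatory subunit FPKM in WT and 76.6% to 82.6% in KO. Prkar2a lay on the other side, with 14.1% to 24.0% in WT and 4.28% to 8.28% in KO, and the Prkar1a share overlapped at 13.4% to 24.5% and 9.78% to 18.2%. These are mRNA ratios, and subunit protein was not measured.

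**Figure D3:**
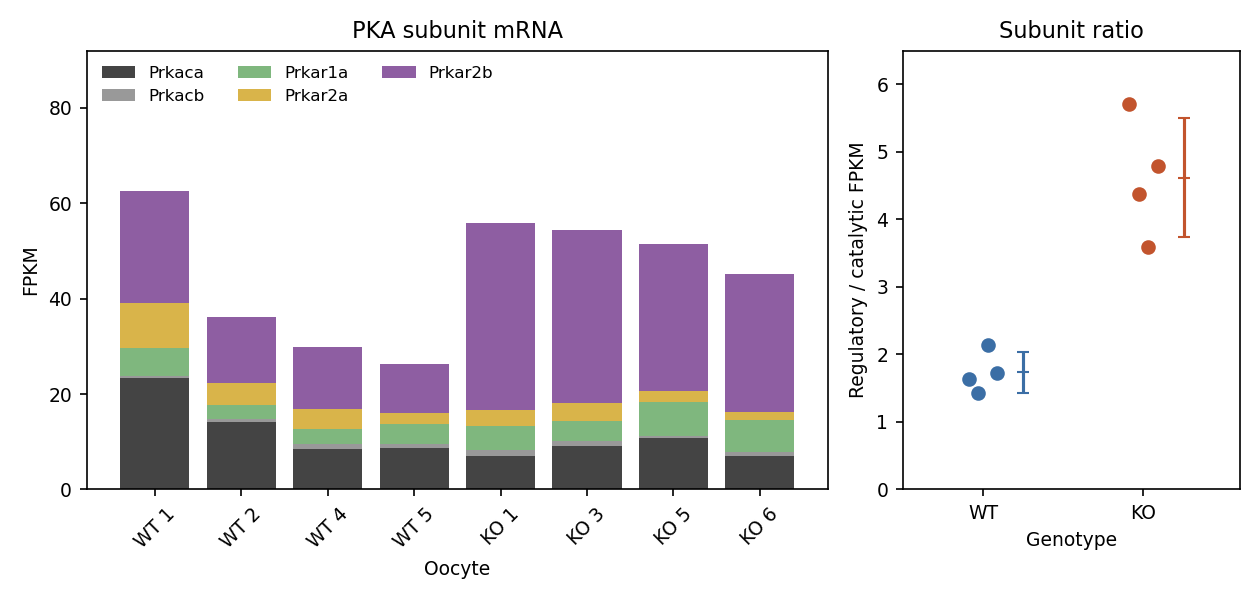
Left, stacked FPKM of the PKA subunit genes in each oocyte; right, the ratio of summed regulatory to summed catalytic FPKM, with points for single oocytes and bars for mean ± SD. The ratio is 1.43 to 2.14 in the 4 WT oocytes and 3.59 to 5.71 in the 4 KO oocytes, and the Prkar2b part of each bar is larger in KO.

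By level, Prkar2b was the first of the 8 genes in 7 of 8 oocytes and Prkaca in WT oocyte 2, at 14.2 against 13.8 FPKM. Averaged over all oocytes the order was Prkar2b at 24.5, Prkaca at 11.1, Prkar1a at 4.91, Pde3a at 3.86, Gpr3 at 2.68, Adcy9 at 1.87, Gpr12 at 0.295 and Adcy3 at 0.0163 FPKM. In WT, Prkar2b and Prkaca did not differ beyond their spread, and neither did Prkar1a, Pde3a and Gpr3 among themselves. Adcy9 followed, at 0.835 to 2.18 FPKM in WT. In KO, the ranges of Prkar2b, Prkaca and Prkar1a were 28.9 to 39.3, 6.94 to 10.8 and 4.33 to 7.07 FPKM, so that Prkar2b stood apart while the ranges of Prkaca and Prkar1a met. The order of Gpr3 and Adcy9 was not the same in both genotypes. Adcy9 was below Gpr3 in all 4 WT oocytes, but its KO mean of 2.10 FPKM was above the 1.72 FPKM of Gpr3, with overlapping ranges, and it was the higher of the pair in KO oocytes 3 and 6. Among 4324 other genes with a mean of at least 5 FPKM, Dusp1, a MAP kinase phosphatase gene, had the pattern most like Prkar2b over the 8 oocytes, with Pearson's r of 0.98. For Prkaca it was Slc30a3, a zinc transporter gene, with r of 0.96, both from values that include the genotype difference and shared libraries.

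Other genes of the pathway were mostly within 2-fold. Of 115 further genes in 8 lists, 114 had an identifier in the table, 14 had no read in any oocyte and 48 were compared. Of these 48, 2 passed 2-fold upward in KO and 4 downward, beside 18.3% and 6.84% of all compared genes. Their median log2 difference was -0.06, beside 0.10 for all compared genes.

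Among 9 compared G protein genes 2 were at least 2-fold lower in KO and none higher, beside 6.84% and 18.3% of all compared genes. Gnb4, which encodes a beta subunit, had means of 10.1 ± 5.08 and 3.65 ± 1.09 FPKM in WT and KO with no overlap, 2.76-fold lower in KO. Gnb2, another beta subunit gene, averaged 1.69 ± 1.07 and 0.630 ± 0.515 FPKM with overlap, 2.68-fold apart, or 1.84-fold if WT oocyte 1 and 4.31-fold if KO oocyte 1 is left out. The more abundant genes were Rgs2, a regulator of G protein signalling, at 317 ± 53.8 and 242.3 ± 30.4 FPKM, Gnb1 at 63.7 and 71.4, and Gnai3, a Gi alpha subunit gene, at 43.9 and 42.7. Gnas, which encodes the Gs alpha subunit through which GPR3 acts, was listed at 0.00414 to 0.0338 FPKM in WT and 0.0145 to 0.0689 in KO, from 46 and 79 reads. In GENCODE M21 part of its exonic sequence also lies in exons of antisense genes, and the part of this in its low value was not tested.

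All 9 compared genes of PKA inhibitors and anchoring proteins stayed within 2-fold, while 18.3% of all compared genes passed it upward and 6.84% downward. Akap7 averaged 41.9 ± 6.05 FPKM in WT and 51.6 ± 11.9 in KO, Akap12 21.4 ± 6.07 and 17.3 ± 2.24, and Akap8l 8.22 ± 2.72 and 7.95 ± 4.89, each with overlap. Of 5 compared genes of the Epac and CREB list, 1 was at least 2-fold higher in KO, beside 18.3% of all compared genes. That gene, Rapgef2, encodes an activator of the GTPase Rap1 and had 5.08 ± 1.46 FPKM in WT and 11.1 ± 1.82 in KO, with no overlap. Its means were 2.19-fold apart, or 1.94-fold if WT oocyte 2 is left out. The Rap genes Rap1a and Rap1b averaged 30.2 and 22.6 FPKM and 34.0 and 41.2 FPKM, and the coactivator gene Crebbp 18.1 and 12.3 FPKM, in WT and KO.

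Genes of meiotic resumption, which include targets of PKA, were mostly within 2-fold, 17 of the 18 compared. Of the 18, 0 passed 2-fold upward in KO and 1 downward, beside 18.3% and 6.84% of all compared genes. KO lay wholly above WT for 1 and wholly below for 2, beside 13.4% and 7.37% of all compared genes. Wee2 had means of 150.6 ± 16.2 and 143.5 ± 20.4 FPKM in WT and KO, with overlapping ranges. Ccnb1, cyclin B1, averaged 769.5 ± 105 and 624.1 ± 125 FPKM with overlap. Ywhae, a 14-3-3 gene, averaged 480.7 ± 39.1 and 412.1 ± 21.7 FPKM, with all KO oocytes below all WT oocytes. Akt1, a kinase gene, was the exception past 2-fold, at 9.59, 4.06, 4.12 and 4.80 FPKM in the WT oocytes and 1.64, 3.50, 2.10 and 2.70 in the KO oocytes. The genotypes did not overlap, and Akt1 was 2.27-fold lower in KO, or 1.74-fold if WT oocyte 1 is left out. Cdc25b did not pass the filter, at 0.146 ± 0.206 and 0.525 ± 0.104 FPKM. Cdk1 did, at 1.28 ± 1.55 and 1.53 ± 0.316 FPKM with overlap, 1.20-fold higher in KO. Without WT oocyte 4 its WT mean was 0.582 FPKM and the fold 2.63, past the threshold. Without WT oocyte 1 or WT oocyte 2 the direction turned, with KO at 0.910 and 0.921 times WT.

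Of the genes through which somatic cells act on the arrest, 2 of 12 were compared. Gja4, which encodes the oocyte's gap junction connexin, had means of 15.3 ± 8.88 and 24.2 ± 15.4 FPKM in WT and KO with overlap. It was 1.58-fold higher in KO, 2.12-fold if WT oocyte 1 is left out and 1.25-fold if KO oocyte 6 is left out. Impdh2, which encodes an enzyme of guanine nucleotide synthesis, did not pass the filter, with means of 0.284 and 0.910 FPKM. Egfr, the epidermal growth factor receptor gene, had 0.499, 0.778, 2.80 and 0.497 FPKM in the WT oocytes and 4.84, 6.81, 7.91 and 11.1 in the KO oocytes. Every KO oocyte lay above every WT oocyte, with means of 1.14 ± 1.11 and 7.66 ± 2.62 FPKM. These were 6.69-fold apart, or 12.96-fold without WT oocyte 4 and 5.63-fold without WT oocyte 5. The granulosa cell markers named above were at or near 0 in both genotypes, apart from Cyp19a1, which averaged 21.5 ± 4.54 and 21.8 ± 9.75 FPKM.

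**Figure D4:**
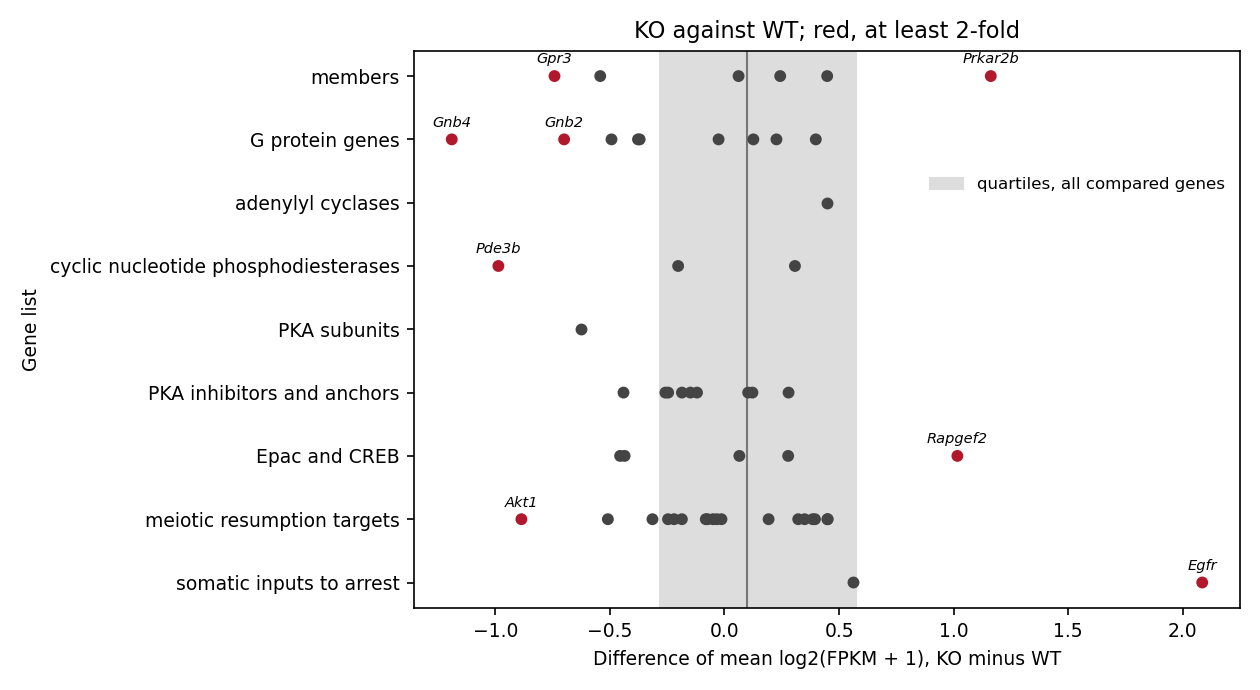
Each point is a compared gene, placed by its difference of mean log2(FPKM + 1), KO minus WT, in rows by list; the first row holds the 6 compared genes described here. The grey band spans the quartiles of all 7833 compared genes with the line at their median of 0.10, and red named points are at least 2-fold apart in mean FPKM.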

How the data were processed

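RNA-seq was made from 8 single MII oocytes, 4 WT and 4 KO. Per the labels' protocols, single oocytes were turned into amplified SMARTer cDNA with added ERCC RNA, which was sheared and sequenced on an Illumina HiSeq. The authors deposited 1 table of FPKM for 37620 Ensembl identifiers. Per the submitters' processing notes, the tools were edgeR 3.1.10, HTSeq, TopHat2 2.0.2, Bowtie2 and Bowtie 0.12.8, with build mm9 and no roles stated. Not given in the sources used here were gene lengths, annotation release and strand use. ERCC values were not used here, so levels are relative to each library's total.

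Of the identifiers, 32897 were given a symbol from a name table. Coordinates, exon lengths and overlaps are from GENCODE M21 on GRCm38, and none was carried between builds. FPKM of a gene moves in steps of 1 read. Library totals came from the most frequent product of FPKM and exon length, shared by 233 to 299 genes per library and taken as 1 read. Whole reads followed from these totals with a tolerance of 0.001 reads. Read sums have exact 95% Poisson intervals, and read ratios exact conditional binomial intervals. A count of 0 was taken to allow up to 3 reads. In simulated tables, read recovery was given the library totals and, for a random part of the genes, the true length, and returned the reads. Genes made with a known fold were only checked for passing 2-fold. The simulation held only genes at 1 FPKM or more in at least 4 oocytes and did not cover the step that finds library totals.

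Members and lists were chosen with earlier results of these data known. Genes were compared at 1 FPKM or more in at least 4 oocytes, by the ratio of mean FPKM (called at 2-fold) and by the difference of mean log2(FPKM + 1). Each genotype is 1 sample, since the labels name no female, so no test was made. Named genes were the members, the 3 highest and up to 4 past 2-fold of each list, and the gene most correlated with each compared member above 5 FPKM. Prkar2a, Prkacb, Adcy2, Adcy4, Adcy6, Adcy7, Gnas, Gpr6, Prkar1b, Pde4d, Cdc25b, Cdk1, Ddx4 and Figla were also named after their values were seen. Alternatives covered scaling, pseudocount, filter, median ratios, each oocyte left out, a replicate block and, added after the data were seen, both WT oocytes with at most 1 Hira read left out. Python 3.11.15, numpy 2.4.6, pandas 2.3.3 and scipy 1.17.1 were used.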

Additional observations from a re-analysis of the deposited data

Results flagged for a closer look

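KO oocyte 6 stood apart from the other KO oocytes in 3 of the groups of 4 values examined, by Dixon's criterion for a single distant value. Its Gpr12 level was 1.69 FPKM, with the gap to the next oocyte at 0.847 of the KO range. Its Adcy3 level was 0.101 FPKM, with a gap of 0.857 of the range, and its Adcy3 share of cyclase FPKM was 2.48%, with a gap of 0.872. All 3 gaps passed the 95% critical value for 4 samples, and chance flags about 1 in 20 groups, of which 50 were examined.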

How the results depend on the processing

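The log2 differences of Gpr3, Prkar2b, Prkaca, Prkar1a and Adcy9 kept their sign in all 14 alternatives run for each, and that of Pde3a in 9 of 14. The Gpr3 difference was -0.35 with a pseudocount of 5. Members at least 2-fold higher numbered 3 of 8 with no filter beyond a read in each genotype, beside 27.6% of all genes. Prkar2b was joined there by Gpr12 and Adcy3, with 88.8% and 83.3% of their KO reads in KO oocyte 6. Members at least 2-fold lower numbered 0 when scaled by reads in listed genes and by the ratio of medians, and 0 to 1 with single oocytes left out. They also numbered 0 at a mean of 5 FPKM or more, where 2 members were counted. That filter left out Gpr3, whose mean was 2.68 FPKM, so this 0 says nothing about Gpr3. Other pathway genes at least 2-fold higher numbered 1 with the replicate block, 17 with no filter, 1 at a mean of 5 FPKM or more and 4 by medians, and 1 to 5 with an oocyte left out. Those at least 2-fold lower numbered 13 with no filter, 2 at a mean of 5 FPKM or more, and 2 to 5 with an oocyte left out. With no filter 93 of these genes were counted, beside 27.6% of all genes 2-fold higher and 12.2% lower. At a mean of 5 FPKM or more 31 were counted, beside 12.8% higher and 6.27% lower. Counted in reads and not per length, the difference in the regulatory to catalytic ratio was 3.97 and that in the Prkar2b to Prkaca ratio 4.71. Per length these differences were 2.88 and 2.99. In reads the regulatory to catalytic ratio was higher in both genotypes, at 2.28 to 3.17 in WT and 5.71 to 7.62 in KO. A larger difference in reads is therefore not a larger fold. Without WT oocytes 2 and 5, chosen after seeing the data, members at least 2-fold higher numbered 0, the members' median log2 difference was -0.10 and the Pde3a difference -0.35. The cause of the other changes was not tested.

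Leaving out an oocyte moved the median log2 difference of members between -0.13 and 0.26, the ratio difference between 2.52 and 3.23, and the Prkar2b to Prkaca difference between 2.49 and 3.42. The log2 difference of Prkar2b then lay between 1.01 and 1.38, of Gpr3 between -0.85 and -0.57, of Prkaca between -0.71 and -0.26, and of Pde3a between -0.35 and 0.31. The replicate block used oocytes 1 and 5 of each genotype, which share only a number. It gave folds of 2.08 for Prkar2b and 0.432 for Gpr3. It could not be checked as a pairing, with 2 shared numbers and no test.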
